A study of Mus musculus with 70 samples.

Results

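Cd38 and 6 genes of the same extracellular nucleotide pathways were described across blood leukocytes of mice after chronic social defeat stress. They were Cd38, Bst1, Nampt, Nt5e, Entpd1, Adora2a and Adora2b, 7 of the 52636 genes counted. The genes were chosen by name, around Cd38, with the increase of Cd38 in Ly6C-high monocytes of stressed mice already known from these data. The levels and changes of Cd38 in that cell type are therefore given as a description with no test. Tests were made for Cd38 in the other cell types and for the other 6 genes.

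RNA of 4 sorted leukocyte types was sequenced in controls without stress (CON) and in stressed mice classed as susceptible (SUS) or resilient (RES). The mice were C57BL/6J, 7 to 8 weeks old at the start of stress. SUS and RES mice had met an aggressive CD-1 mouse on each of 10 days, and a social interaction test a day after the last defeat separated the animals that avoided a social target (SUS) from those that did not (RES). CON mice were housed in pairs across a divider and met no aggressor. Trunk blood cells were lysed for red cells, stained for CD11b, Ly6C, Ly6G, B220 and CD90.2 and sorted as monocytes high or low in Ly6C, as B cells and as T cells. The sample source is labelled as brain, whereas the design text and the study's methods describe blood. Each group held 6 libraries, except Ly6C-low monocytes of CON mice (4) and, after the omission below, B cells and T cells of RES mice (5 each). No label ties libraries to mice, so cell types of a mouse could not be paired and p-values measure the spread between libraries.

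NAD and ATP that reach the outside of a cell are broken down by enzymes at its surface, and the products act on receptors of leukocytes. CD38 and its relative BST1 (CD157) hydrolyse NAD and form ADP-ribose and cyclic ADP-ribose, which mobilise calcium, while NAMPT is the rate-limiting enzyme that rebuilds NAD from nicotinamide inside the cell. ENTPD1 (CD39) degrades ATP to AMP, NT5E (CD73) turns AMP into adenosine, and the receptors ADORA2A and ADORA2B answer adenosine by raising cyclic AMP. CD38 is known as an activation marker of lymphocytes and myeloid cells.

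All 7 genes lie on the plus strand of GRCm38. Cd38 (ENSMUSG00000029084, chr5:43868553-43912375) and Bst1 (ENSMUSG00000029082, chr5:43818885-43843986) are neighbours. Nampt (ENSMUSG00000020572) spans chr12:32819545-32853349, Nt5e (ENSMUSG00000032420) chr9:88327197-88372092, Entpd1 (ENSMUSG00000048120) chr19:40612366-40741602, Adora2a (ENSMUSG00000020178) chr10:75316877-75334784 and Adora2b (ENSMUSG00000018500) chr11:62248984-62266453. Of the exon bases of Bst1, 98 overlap an exon of Fbxl5 on the other strand, which is 2.95% of its exons, and whether reads were counted by strand was not given. No exon of the other members overlapped an exon of another gene.

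The 250 bases before the RefSeq start are shown for Nampt and Adora2b, whose mean levels were highest in Ly6C-high monocytes of CON mice, because the windows held many copies of the same motif. Capitals mark the GC box, GGGCGG or its reverse complement CCGCCC (RefSeq, GRCm38.p6, plus strand).
Nampt promoter (chr12:32820085-32820334): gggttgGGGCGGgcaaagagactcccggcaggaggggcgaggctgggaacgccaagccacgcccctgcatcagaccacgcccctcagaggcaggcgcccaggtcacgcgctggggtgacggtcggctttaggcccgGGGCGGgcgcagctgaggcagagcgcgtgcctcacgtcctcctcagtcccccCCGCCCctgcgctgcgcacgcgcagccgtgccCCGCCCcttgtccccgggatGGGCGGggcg
Adora2b promoter (chr11:62248734-62248983): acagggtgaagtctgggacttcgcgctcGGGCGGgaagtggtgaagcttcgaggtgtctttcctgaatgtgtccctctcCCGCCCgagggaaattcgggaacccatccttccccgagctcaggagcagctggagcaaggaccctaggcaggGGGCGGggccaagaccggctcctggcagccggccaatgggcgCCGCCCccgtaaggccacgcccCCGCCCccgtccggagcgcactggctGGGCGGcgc
The GC box occurred 5 times in the Nampt window and 6 times in that of Adora2b, and at least once in 32.7% of 32851 windows of the same length before RefSeq starts. Guanine and cytosine made up 75.6% of the Nampt window and 69.6% of the Adora2b window, against a median of 52.4% over all windows. CpG pairs numbered 27 and 22, against a median of 6. The window of Nt5e, a gene highest in T cells, held the GC box 4 times, with 72.0% guanine and cytosine and 21 CpG pairs, and those of Cd38 and Entpd1 held none. All 250 bases of the Nt5e and Cd38 windows lay in exons of the same gene by GENCODE, unlike the windows printed here. No window was available for Bst1 and Adora2a. Neither the Nampt nor the Adora2b window held GAGGAA, the core letters of PU.1 sites, on either strand, and GAGGAA was present in 23.3% of all windows. Entpd1 had windows before 2 starts, at chr19:40612116-40612365 and chr19:40659520-40659769, and the second held GAGGAA at 2 positions. These matches describe letters only, and binding was not measured.

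Libraries held between 19769835 and 67038231 counts (median 37105583.5). The defining markers followed the labels in 68 of the 70 libraries. Library 52, labelled as B cells of RES mice, held Cd79a at 5.72 counts per 1000000 (CPM) and Cd3e at 410.1, and library 70, labelled as T cells of RES mice, held Cd79a at 1403 and Cd3e at 0.142. Both went against their labels and were left out. Ly6c2, which encodes the sorted antigen, ran from 246 to 881 CPM in the Ly6C-high libraries and from 0.143 to 2.66 CPM in the Ly6C-low libraries. Red cell transcripts were present in every library although red cells had been lysed, and NK cell transcripts were present in the Ly6C-low monocytes. Their values stand beside the results they move with.

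In CON mice the order of levels across the 4 cell types varied between genes (TMM-normalized CPM, mean ± SD). Bst1, Nampt and Adora2b shared the same order of mean levels, and each of the other genes had a different one. Cd38 was highest in B cells, at 121 ± 21.4 CPM (n = 6). It followed at 2.93 ± 2.01 CPM in Ly6C-low monocytes (n = 4), 2.39 ± 1.09 CPM in T cells (n = 6) and 0.072 ± 0.108 CPM in Ly6C-high monocytes (n = 6). In the latter, 3 of 6 libraries had no Cd38 read and the highest count was 10. The step from B cells to Ly6C-low monocytes was 5.32 on the log2 scale (edgeR quasi-likelihood test, adjusted p = 4.94e-08), and Ly6C-low monocytes and T cells did not differ beyond their spread (log2 difference 0.34 ± 0.44 SE, adjusted p = 0.599). The low level of Cd38 in Ly6C-high monocytes of CON mice belongs to the contrast by which the gene was chosen and is not tested. In bulk samples, fewer cells of a type and less RNA per cell cannot be told apart.

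Bst1 was highest in Ly6C-high monocytes, where Cd38 was lowest. Its level was 24.6 ± 5.57 CPM in Ly6C-high monocytes, 3.04 ± 1.21 CPM in Ly6C-low monocytes, 0.799 ± 0.588 CPM in B cells and 0.189 ± 0.323 CPM in T cells, where 4 of 6 CON libraries had no Bst1 read. Ly6C-high exceeded Ly6C-low monocytes by 2.99 ± 0.97 (SE) on the log2 scale (edgeR, adjusted p = 0.0343). This call was lost with no filter on low counts (adjusted p = 0.0684) and when any of 7 CON libraries was left out (Ly6C-high libraries 4, 7 and 16 and Ly6C-low libraries 21, 24, 29 and 32, adjusted p = 0.05 to 0.0943). The lower neighbours in the order did not differ beyond their spread (adjusted p = 0.0803 for Ly6C-low monocytes vs. B cells and 0.0936 for B cells vs. T cells).

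Nampt, the NAD salvage enzyme, was also highest in Ly6C-high monocytes. The level was 97.3 ± 14.8 CPM there, 45.5 ± 12.2 CPM in Ly6C-low monocytes, 27.6 ± 8.35 CPM in B cells and 19.3 ± 4.16 CPM in T cells. The log2 difference between both monocyte types was 1.08 ± 0.20 (SE, adjusted p = 0.000252), and without library 24 of the Ly6C-low monocytes it was 0.98 and under the fold limit. The steps to B cells (0.75, adjusted p = 0.0027) and from B to T cells (0.50, adjusted p = 0.0302) passed the adjusted p of edgeR but not the fold limit.

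The enzymes of the adenosine route were split between cell types. Entpd1, which removes phosphates from ATP and ADP, was at 83.9 ± 12.9 CPM in Ly6C-low and 52.3 ± 4.97 CPM in Ly6C-high monocytes, a difference that did not pass the test (log2 difference 0.69 ± 0.25, adjusted p = 0.0578). B cells followed at 18.3 ± 4.16 CPM and T cells at 5.34 ± 2.99 CPM, each step passing the test (adjusted p = 6.23e-06 and 1.45e-06). Nt5e, which makes adenosine from AMP, was at 65.9 ± 7.43 CPM in T cells and at 2.77 ± 1.73 CPM in Ly6C-low monocytes, 1.41 ± 0.852 CPM in B cells and 1.13 ± 0.665 CPM in Ly6C-high monocytes. T cells exceeded the next cell type by 4.56 ± 0.65 (SE) on the log2 scale (adjusted p = 6.79e-06), and the lower 3 did not differ from their neighbours beyond the spread.

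The adenosine receptors differed from each other. Adora2a was measured in every cell type, at 33.5 ± 2.15 CPM in Ly6C-low monocytes, 16.3 ± 6.03 CPM in T cells, 15.1 ± 1.35 CPM in Ly6C-high monocytes and 11.8 ± 2.96 CPM in B cells. Ly6C-low monocytes exceeded T cells by 1.06 ± 0.22 (SE) on the log2 scale (adjusted p = 0.000311), which fell below the fold limit without library 53 (0.93) or library 62 (0.96) of the T cells. Adora2b was at 16.4 ± 5.36 CPM in Ly6C-high and 9.90 ± 2.43 CPM in Ly6C-low monocytes, which did not differ beyond their spread (adjusted p = 0.573). In lymphocytes Adora2b was near 0, at 0.163 ± 0.176 CPM in B cells and 0.0642 ± 0.129 CPM in T cells, and the step from Ly6C-low monocytes to B cells was 5.86 ± 0.81 (SE, adjusted p = 2.00e-06).

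Between Ly6C-high and Ly6C-low monocytes of CON mice, 3 of the 6 genes other than Cd38 passed an adjusted p of 0.05 and a log2 difference of 1, against 11.2% of the 21032 genes tested. Of the same 6, 4 passed for Ly6C-high monocytes vs. B cells (33.1% of all genes) and 5 for Ly6C-high monocytes vs. T cells (32.8%). Of all 7 genes, 4 passed for Ly6C-low monocytes vs. B cells (30.3%), 6 for Ly6C-low monocytes vs. T cells (28.5%) and 3 for B cells vs. T cells (20.2%). Per kilobase of merged exons, the highest group levels in CON mice were 31.0 for Cd38 in B cells, 19.3 for Nampt in Ly6C-high monocytes, 15.0 for Entpd1 in Ly6C-low monocytes and 10.9 for Adora2a in Ly6C-low monocytes (CPM per kb). Adora2b reached 8.89, Nt5e 7.66 and Bst1 7.41 CPM per kb in their highest cell type. On this scale the Cd38 level of B cells stood first of the 7 genes, and that of Ly6C-high monocytes (0.0185 CPM per kb) was the lowest of all.

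**Figure D1:**
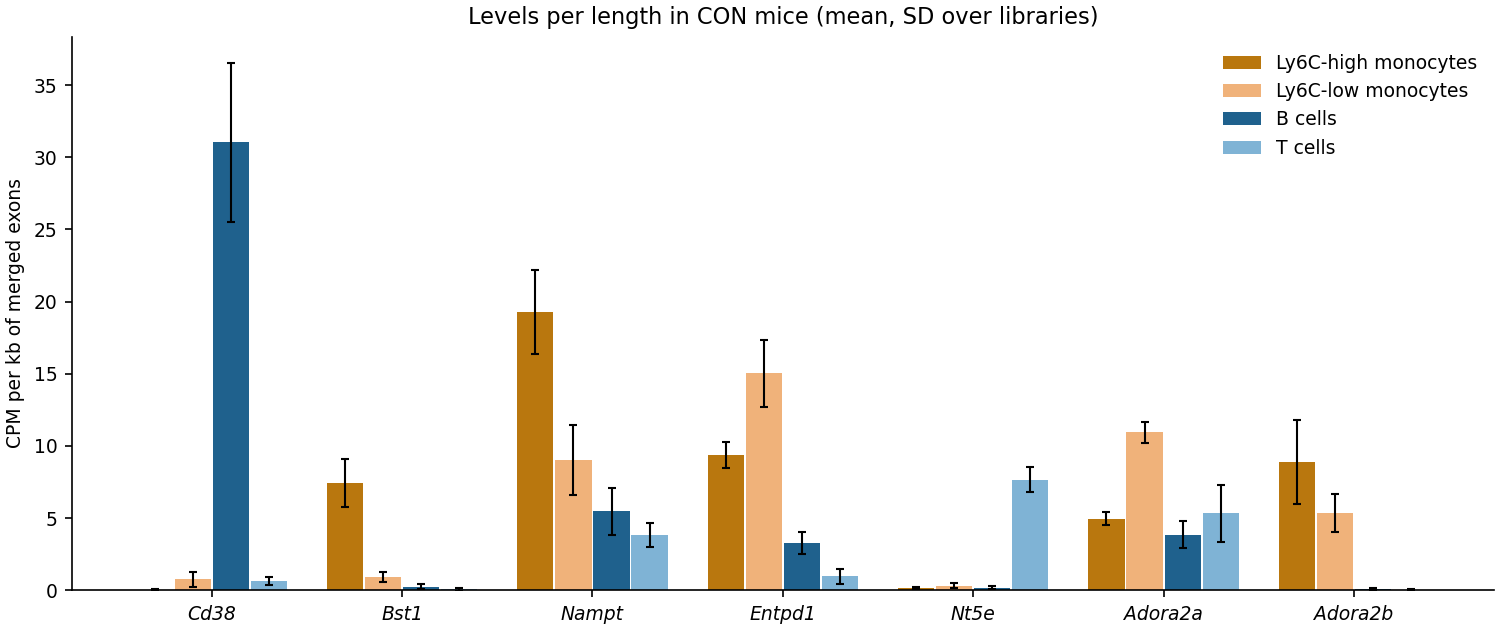
Level per kilobase of merged exons (CPM per kb, linear axis from 0) of the 7 genes in the 4 cell types of CON mice, with bars for the mean over libraries and error bars for 1 SD. Cd38 is highest in B cells, Nt5e in T cells, Bst1, Nampt and Adora2b in Ly6C-high monocytes, and Entpd1 and Adora2a in Ly6C-low monocytes.

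In Ly6C-high monocytes, Cd38 went from near absence in CON mice to measurable levels after stress. The CON libraries held 0, 0, 0, 0.0277, 0.146 and 0.259 CPM. The SUS libraries held 0.0587, 1.99, 2.31, 4.88, 10.9 and 37.0 CPM. The RES libraries held 0.645, 0.835, 1.05, 1.48, 2.01 and 5.22 CPM. All 6 RES libraries lay above every CON library, as in 2.78% of the 16955 genes tested. So did 5 of the 6 SUS libraries, and SUS library 14, with 2 Cd38 reads, lay among the CON libraries. The fitted log2 changes were 6.92 ± 1.19 (SE) for SUS vs. CON and 4.63 ± 1.10 for RES vs. CON, with 2.29 ± 0.93 between SUS and RES. The spread within SUS was wide, with library 8 at 37.0 CPM (1510 reads) and the next at 10.9. Without library 8, the log2 changes of SUS were 5.73 against CON and 1.09 against RES. In library 8 itself, Cd38 stayed below the lowest B cell library (99.3 CPM). Cd79a, a defining B cell gene, was at 0.0873 to 2.33 CPM in the CON libraries of this cell type, 0.172 to 2.32 CPM in SUS mice and 0.569 to 2.67 CPM in RES mice, and the groups overlapped. In the B cell libraries it ran from 1157 to 1834 CPM.

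**Figure D2:**
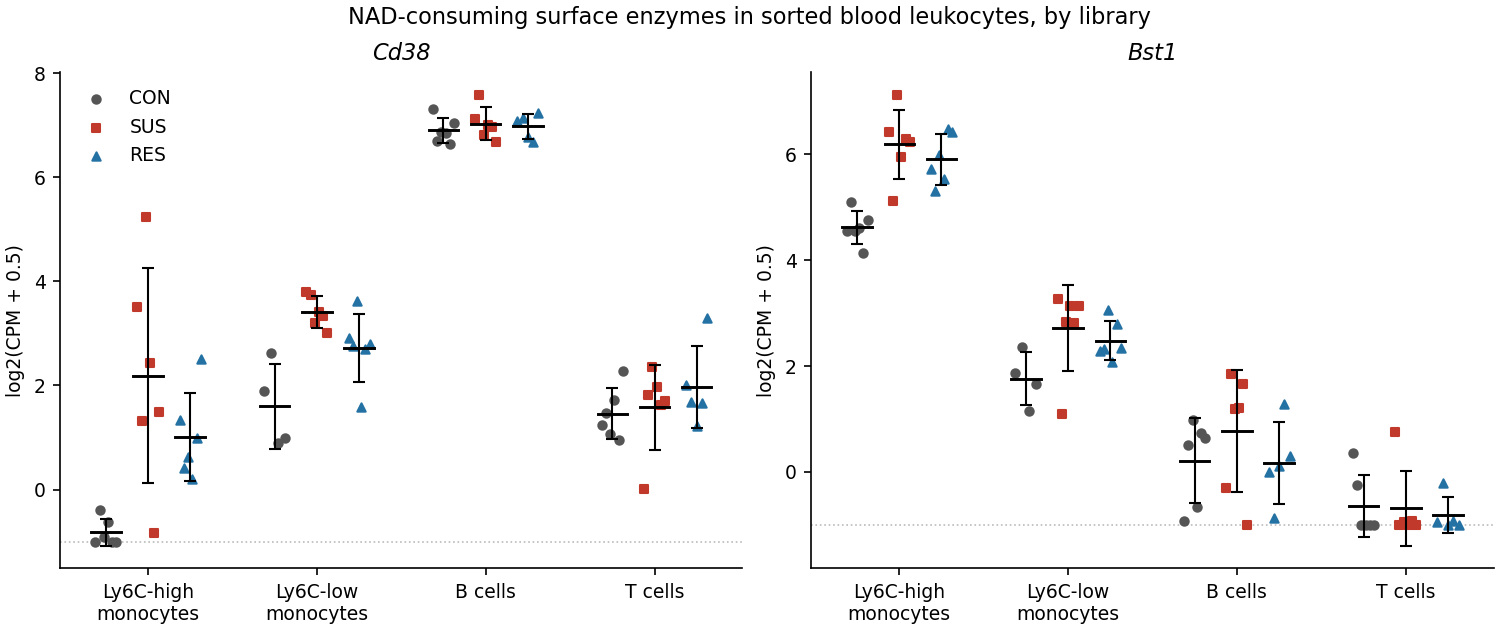
Cd38 and Bst1 in the 4 cell types of CON, SUS and RES mice, as log2(CPM + 0.5) per library, with bars for mean ± SD and a dotted line at 0 CPM. Cd38 lies at or near the dotted line in Ly6C-high monocytes of CON mice, and all RES and 5 of 6 SUS libraries lie above every CON library. Bst1 is higher in every stressed than in every CON library of this cell type.

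Bst1, the neighbour and relative of Cd38, rose in Ly6C-high monocytes of both stressed groups. The CON libraries held 17.1, 22.9, 23.0, 24.0, 26.6 and 34.0 CPM. The SUS libraries held 34.1, 61.3, 75.1, 77.3, 84.7 and 139 CPM. The RES libraries held 39.1, 45.6, 52.3, 62.7, 85.7 and 88.5 CPM. No stressed library overlapped the CON libraries, although SUS library 5 exceeded the highest of them only narrowly. Of all 16955 genes tested, 4.39% had every SUS library above every CON library and 2.78% had every RES library above them. The log2 change was 1.66 ± 0.25 (SE) for SUS vs. CON (edgeR, adjusted p = 0.000724) and 1.34 ± 0.25 for RES vs. CON (adjusted p = 0.0138). SUS and RES did not differ beyond their spread (0.31, 95% interval -0.17 to 0.79, adjusted p = 0.999).

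Bst1 was the 1 gene called among the 6 other than Cd38, both in SUS vs. CON (3.45% of all genes called) and in RES vs. CON (0.997%). Neither it nor any other of the 6 was called for SUS vs. RES, where the share of all genes was 0%, none had an unadjusted p under 0.05 and DESeq2 called none. Red cell transcripts were higher in the same libraries. The sum of Hba-a1, Hba-a2, Hbb-bs, Hbb-bt, Alas2 and Slc4a1 was 345 to 1230 CPM in CON mice, 1100 to 8760 CPM in SUS mice and 1090 to 4390 CPM in RES mice. All 6 genes were called higher in SUS vs. CON and 1 of the 6 in RES vs. CON. With the mean log2 level of these genes as a covariate, an alternative chosen after the data were seen, the log2 change of Bst1 was 1.36 (adjusted p = 0.166) for SUS and 1.10 (adjusted p = 0.803) for RES, and neither was called. The fitted changes of Cd38 with this covariate, given as a description, were 6.52 for SUS and 4.33 for RES. Red cell sums were higher in stressed mice, so this fit cannot fully separate them from stress. Within SUS mice, library 14 had the highest red cell sum (8759 CPM), the lowest Cd38 (0.0587 CPM) and a Bst1 level of 77.3 CPM. Library 5 had the lowest red cell sum (1103 CPM), the lowest Bst1 (34.1 CPM) and the second lowest Cd38 (1.99 CPM), and library 8, highest in Cd38 and Bst1, was second in red cell sum (2759 CPM).

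Sums of markers of other cells also shifted in Ly6C-high monocytes, mostly with overlapping ranges. Of 5 markers tested in each list, SUS vs. CON called 1 granule progenitor, 1 platelet and 0 neutrophil markers higher and 1 dendritic cell marker lower. In RES vs. CON, 1 granule progenitor marker was called higher and 0 of the other 3 lists. Granule progenitor transcripts (Mpo, Elane, Prtn3, Ctsg and Ms4a3) summed to 3.78 to 33.0 CPM in CON, 12.0 to 146 in SUS and 20.9 to 86.4 in RES. Neutrophil markers summed to 15.7 to 187, 20.3 to 570 and 15.4 to 319 CPM, and platelet markers to 5.70 to 10.1, 5.66 to 49.2 and 7.32 to 19.1 CPM in CON, SUS and RES. Markers of conventional dendritic cells were lower, at 127 to 167 CPM in CON, 29.7 to 97.9 in SUS and 70.4 to 153 in RES. Cd209a, also a gene of dendritic-like monocytes, led this fall, with a mean of 55.0 CPM in CON and 5.65 in SUS. Whether its RNA came from dendritic cells or from monocytes was not tested. Markers of Ly6C-low monocytes summed to 1400 to 1740 CPM in CON, 759 to 1660 in SUS and 1130 to 1780 in RES, with 0 called. SUS libraries 8 and 2, highest in Cd38, had the lowest sums of SUS (886 and 759 CPM). RES library 18, highest of RES in Cd38, had the lowest of RES (1133 CPM). SUS library 11 did not follow this order, with 4.88 CPM of Cd38 at a sum of 1654 CPM, against 2.31 at 1198 CPM in library 17. The part of these transcripts in the Cd38 and Bst1 values was not tested.

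**Figure D3:**
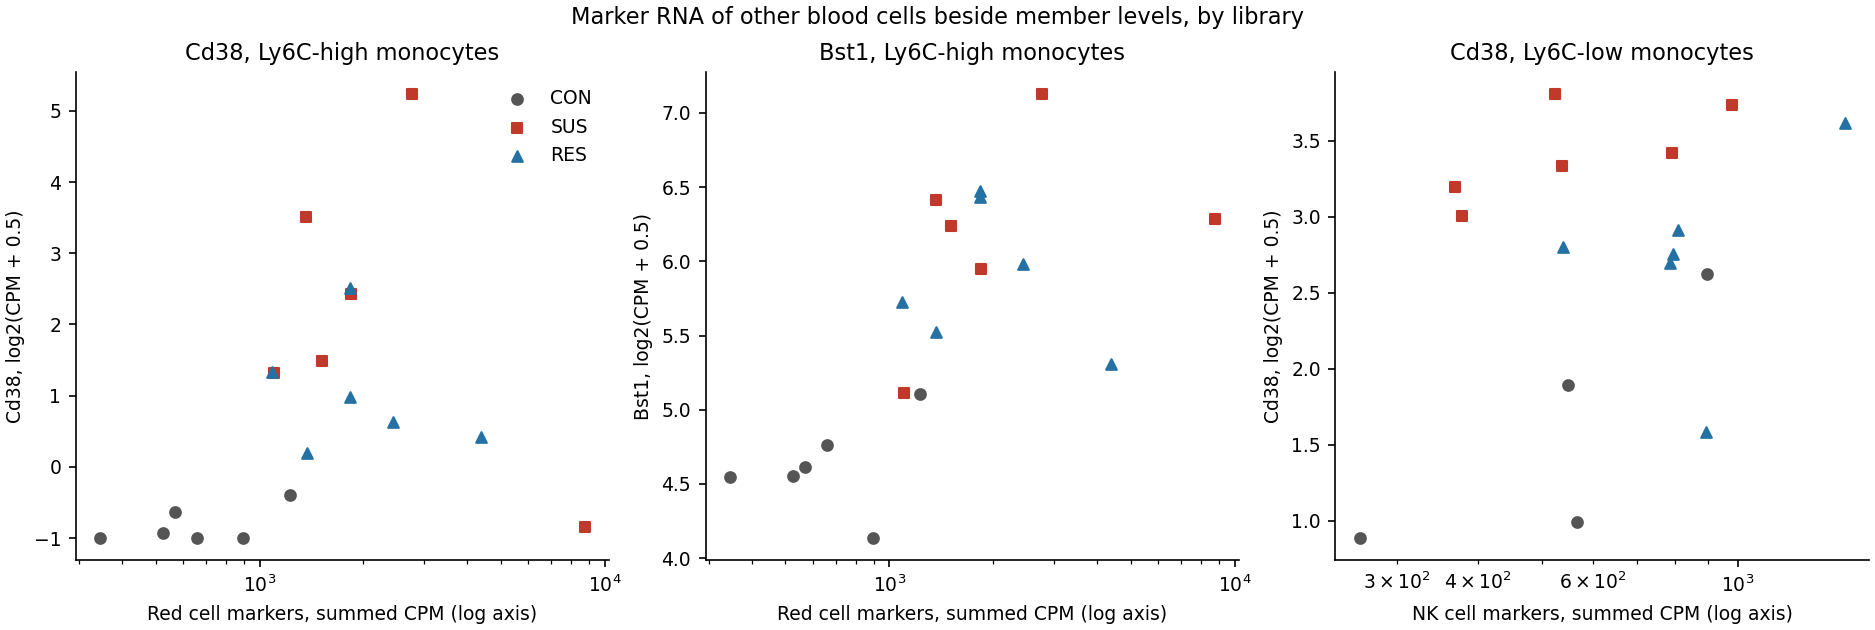
Summed red cell markers (CPM, log axis) against Cd38 and Bst1 as log2(CPM + 0.5) per library in Ly6C-high monocytes, and summed NK cell markers against Cd38 in Ly6C-low monocytes, with points coloured by stress group. SUS library 14 has the highest red cell sum of the Ly6C-high libraries (8759 CPM) with Cd38 at 0.0587 CPM.

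In Ly6C-low monocytes Cd38 rose in SUS mice from a higher starting level. The CON libraries held 1.35, 1.49, 3.22 and 5.65 CPM. The SUS libraries held 7.51, 8.64, 9.59, 10.2, 12.8 and 13.5 CPM, all above every CON library, which was true of 1.11% of the 19521 genes tested. The RES libraries held 2.50, 5.99, 6.26, 6.46, 7.04 and 11.8 CPM, and 5 of 6 lay above every CON library. The log2 change was 1.81 ± 0.39 (SE) for SUS vs. CON (edgeR, adjusted p = 0.0439), 1.16 ± 0.38 for RES vs. CON (adjusted p = 0.278) and 0.65 ± 0.33 for SUS vs. RES (adjusted p = 1). Cd38 was the 1 gene of 7 called in SUS vs. CON, where 0.0871% of all genes were called. No member was called in RES vs. CON (0.0154% of all genes) or SUS vs. RES (0%) by edgeR or DESeq2, where 1 and 0 members had an unadjusted p of edgeR under 0.05.

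The call of Cd38 in Ly6C-low monocytes sat close to the threshold. It was lost when CON and SUS were fitted without RES (1.81, adjusted p = 0.0821) and with the red cell genes as a covariate (1.81, adjusted p = 0.326). It was also lost in 12 of the 16 fits that left out a library (1.58 to 1.86, adjusted p = 0.0524 to 0.165). The call was kept without SUS library 33, CON library 24, RES library 26 or RES library 28. Over all 16 fits the log2 change was 1.58 to 2.34 (adjusted p = 0.0129 to 0.165). The red cell sum was 298 to 1260 CPM in CON, 855 to 2690 in SUS and 879 to 3950 in RES. The NK cell sum (Klrb1c, Ncr1, Gzma, Prf1 and Nkg7) was 263 to 895 CPM in CON, 368 to 979 in SUS and 539 to 1460 in RES, and with these genes as a covariate the log2 change was 1.95 (adjusted p = 0.0122). Markers of conventional dendritic cells (Flt3, Zbtb46, Xcr1, Clec9a and Cd209a) summed to 97.8 to 265 CPM in CON, 39.6 to 124 in SUS and 60.2 to 194 in RES, and 1 of the 5, Zbtb46, was called lower in SUS vs. CON (mean 32.0 CPM in CON and 16.1 in SUS, adjusted p = 0.026 in edgeR). Neutrophil markers summed to 1.55 to 28.9 CPM in CON, 9.41 to 68.7 in SUS and 2.31 to 28.2 in RES, with a median log2 change of 1.56 and no call in SUS vs. CON, and Ly6g was at 0 in every Ly6C-low library. The part of the dendritic cell and neutrophil transcripts in the Cd38 values was not tested.

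Bst1 moved in the same direction in Ly6C-low monocytes without passing the test. The CON libraries held 1.72, 2.66, 3.17 and 4.63 CPM. The SUS libraries held 1.63, 6.56, 6.65, 8.25, 8.27 and 9.14 CPM, and 5 of 6 exceeded every CON library. The RES libraries held 3.69, 4.35, 4.51, 4.54, 6.43 and 7.86 CPM. The log2 change was 1.14 ± 0.39 (SE) for SUS vs. CON (edgeR, adjusted p = 0.274) and 0.76 ± 0.39 for RES vs. CON (adjusted p = 0.55). SUS library 22, the lowest of its group in Bst1 at 1.63 CPM, was second in Cd38 at 12.8 CPM.

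In B cells, where Cd38 was highest, its level stayed within the spread of the groups. It was 121 ± 21.4 CPM in CON (99.3 to 158), 133 ± 31.5 CPM in SUS (102 to 192) and 128 ± 21.0 CPM in RES (101 to 150). The log2 change was 0.14 (95% interval -0.14 to 0.42) for SUS vs. CON and 0.08 (-0.21 to 0.37) for RES vs. CON, with adjusted p = 0.999 and 1 in edgeR. In T cells Cd38 was 2.39 ± 1.09 CPM (CON), 2.81 ± 1.35 CPM (SUS) and 4.00 ± 3.01 CPM (RES), with log2 changes of 0.23 (-0.69 to 1.15) and 0.74 (-0.22 to 1.70). RES library 67 held 9.28 CPM of Cd38 and the other RES libraries of T cells 1.83 to 3.51 CPM.

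The difference of the changes between cell types was fitted over all 68 libraries. For Cd38, the change of SUS vs. CON in Ly6C-high monocytes exceeded that in Ly6C-low monocytes by 5.18, in B cells by 6.86 and in T cells by 6.75 on the log2 scale, given as a description. For RES vs. CON these differences were 3.39, 4.50 and 3.83. The folds in Ly6C-high monocytes start from a CON mean of 0.072 CPM, where no library held more than 10 Cd38 reads. In CPM, the median Cd38 level of CON and SUS mice was 0.0138 and 3.59 in Ly6C-high monocytes. It was 2.355 and 9.89 in Ly6C-low monocytes, so the larger fold was not a larger rise in CPM. For Bst1, the change of SUS vs. CON was larger in Ly6C-high than in Ly6C-low monocytes by 0.55 ± 1.02 (SE, adjusted p = 0.951), so a difference between the monocyte types was not shown. None of the 6 genes other than Cd38 passed an adjusted p of 0.05 in the 6 differences tested, against 0.363%, 6.18% and 3.22% of 24248 genes for SUS vs. CON (with Ly6C-low monocytes first, then B cells, then T cells) and 0.099%, 1.65% and 0.713% for RES vs. CON. An unadjusted p of edgeR under 0.05 was reached in 2 of these differences, those of Nt5e against T cells for SUS vs. CON (-2.01, adjusted p = 0.218) and of Adora2b against B cells for RES vs. CON (-2.64, adjusted p = 0.187).

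Nampt showed no call in any cell type. In Ly6C-high monocytes it was 97.3 ± 14.8 CPM in CON mice, 80.4 ± 13.1 CPM in SUS mice and 87.8 ± 39.6 CPM in RES mice (log2 change -0.29, 95% interval -0.69 to 0.11, for SUS vs. CON). RES library 6 held 161 CPM, while the other RES libraries held 53.7 to 99.7 CPM. In T cells, Nampt was 19.3 ± 4.16 CPM in CON and 26.2 ± 5.22 CPM in RES, with a log2 change of 0.44 ± 0.17 (SE, adjusted p = 0.954 in edgeR).

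The enzymes that make adenosine did not pass the test in any stress contrast. Nt5e in T cells was 55.3 to 76.8 CPM in CON (median 65.4), 59.2 to 105 CPM in SUS (median 83.2) and 74.7, 77.0, 85.4, 86.7 and 86.7 CPM in RES. Of the RES libraries, 4 of 5 lay above every CON library, as did 3 of 6 SUS libraries. The log2 change was 0.31 ± 0.13 (SE) for SUS vs. CON (adjusted p = 0.781) and 0.32 ± 0.13 for RES vs. CON (adjusted p = 1) in edgeR. In Ly6C-high monocytes Nt5e was at most 2.60 CPM and 3 of 6 SUS libraries had no read. The log2 changes of Entpd1 against CON ran from -0.28 to 0.29 over the 4 cell types. In Ly6C-low monocytes it was 83.9 ± 12.9 CPM in CON mice, 70.5 ± 15.2 CPM in SUS mice and 75.8 ± 12.3 CPM in RES mice (SUS vs. CON -0.25, 95% interval -0.54 to 0.03).

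The receptors were not called either. Adora2a in Ly6C-high monocytes was 13.0 to 16.5 CPM in CON, and in SUS 3 libraries held 6.28 to 7.10 CPM, 1 held 12.6 CPM and 2 held 18.5 and 18.9 CPM. Its log2 change was -0.38 (95% interval -0.92 to 0.16, adjusted p = 0.415). The SUS libraries thus lay on both sides of the CON libraries. Adora2b in Ly6C-high monocytes was 16.4 ± 5.36 CPM in CON mice, 20.3 ± 4.52 CPM in SUS mice and 18.5 ± 4.01 CPM in RES mice (SUS vs. CON 0.30, -0.15 to 0.74). In B cells, where few reads of Adora2b were counted (at most 94 in a library), RES vs. CON was 2.88 ± 1.36 (adjusted p = 1 in edgeR), with RES libraries at 0, 0, 0.415, 2.44 and 3.32 CPM.

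No member was called in B cells or T cells by edgeR or DESeq2, and an unadjusted p of edgeR under 0.05 was reached by Adora2b in B cells and by Nt5e and Nampt in T cells. The shares of all genes called were 0.00568% of 17620 in B cells and 0.0265% of 18860 in T cells for SUS vs. CON, and 0% in RES vs. CON and SUS vs. RES in both. Bst1 was below the count filter in T cells and was not tested there.

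**Figure D4:**
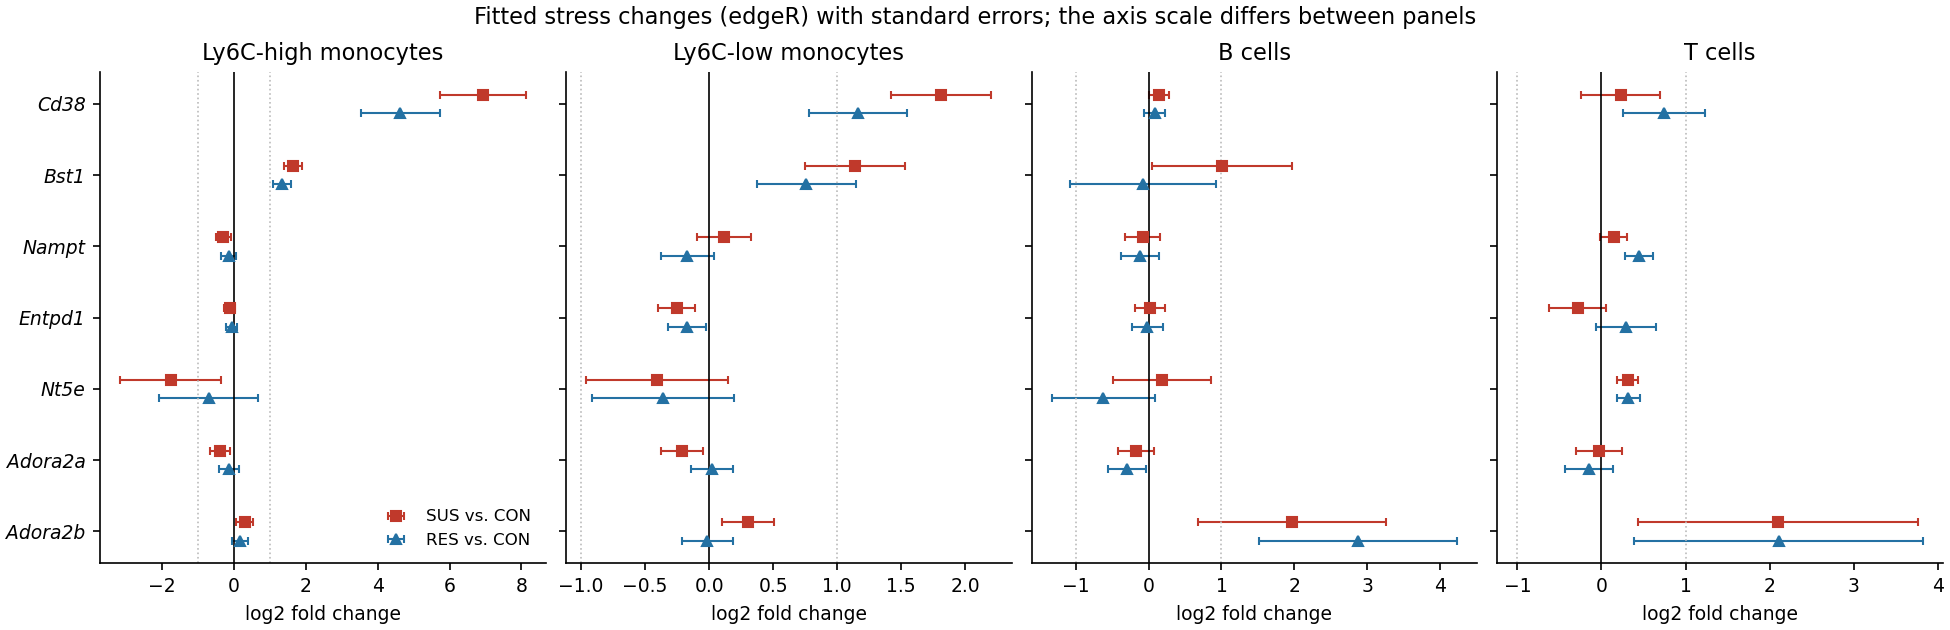
Log2 fold changes ± SE of the 7 genes for SUS vs. CON and RES vs. CON in the 4 cell types, each panel with its own axis scale. Cd38 in Ly6C-high monocytes stands at 6.92 (SUS) and 4.63 (RES), as a description with no test. Bst1 there stands at 1.66 and 1.34. Of the genes tested in that panel, only Bst1 was called.

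**Figure D5:**
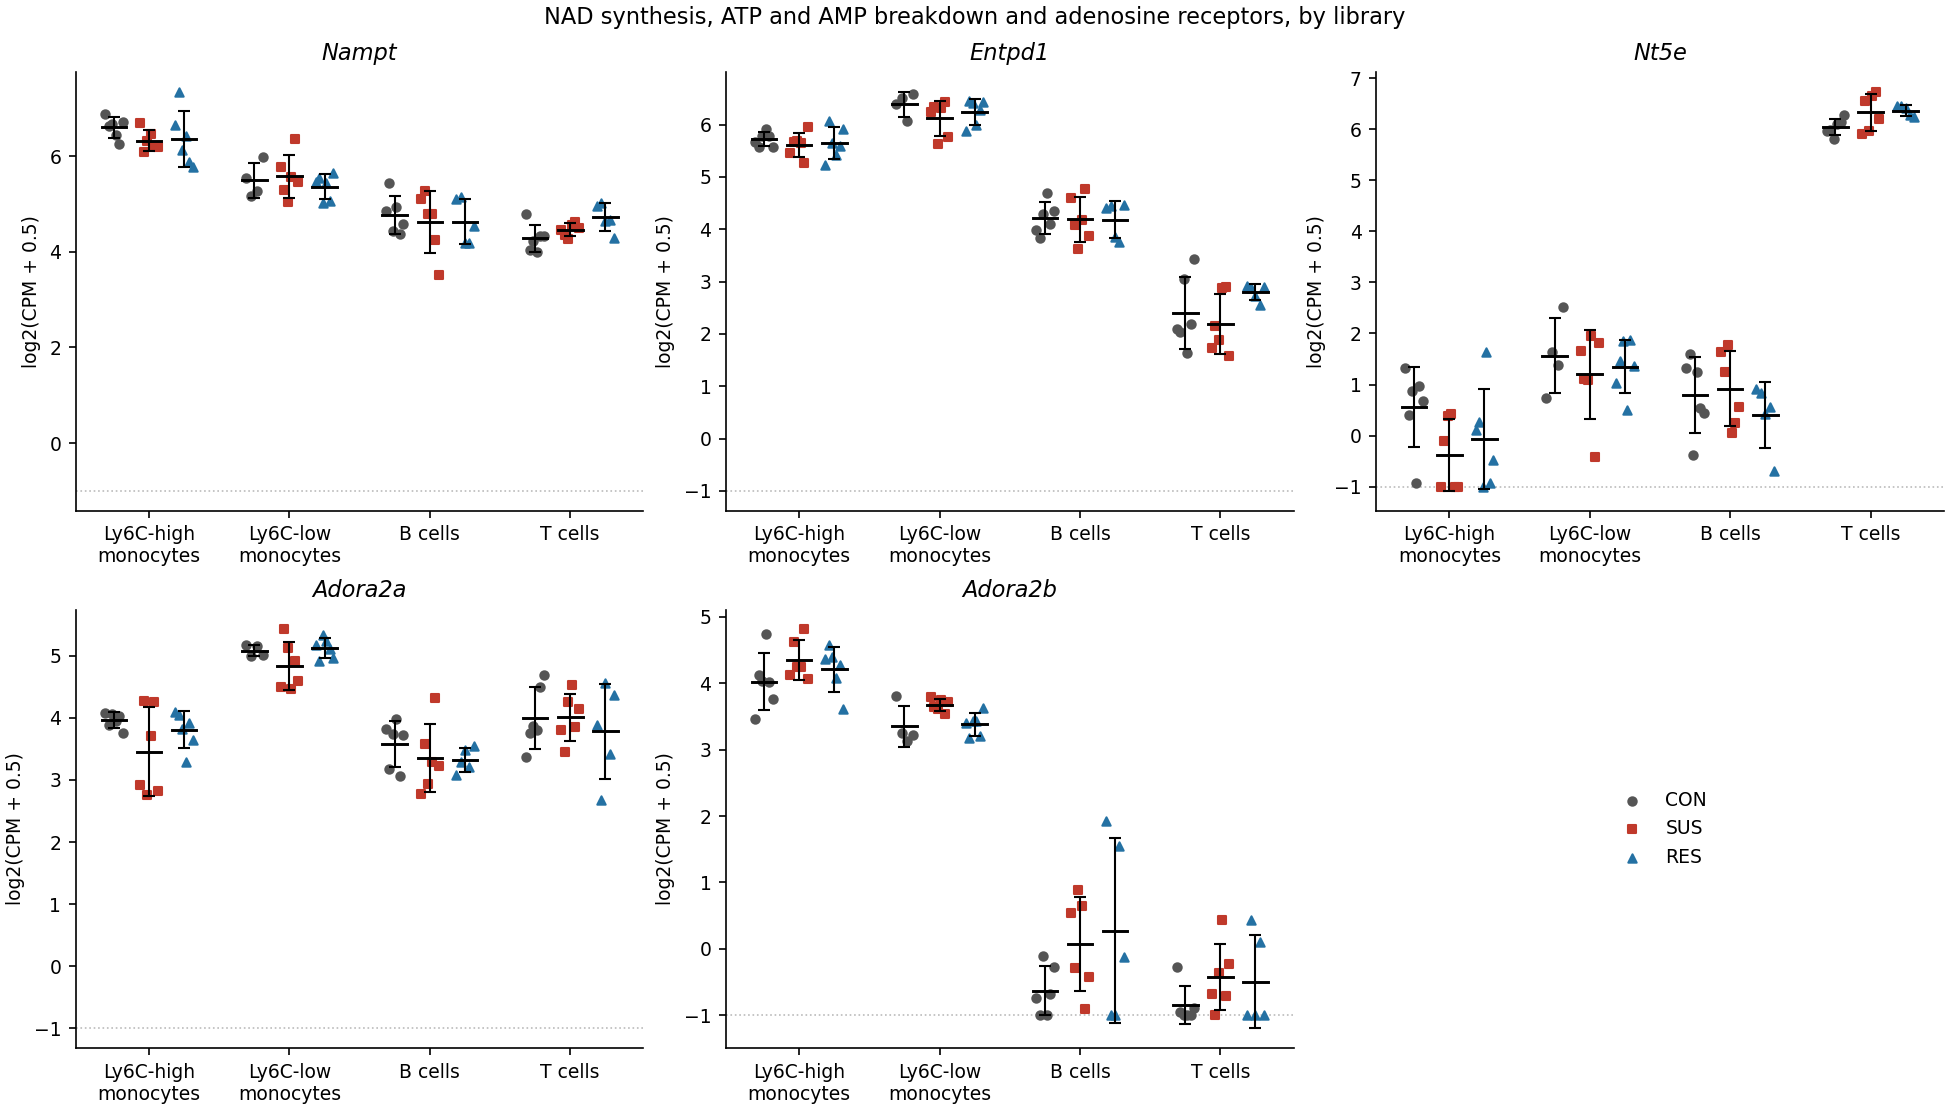
Nampt, Nt5e, Entpd1, Adora2a and Adora2b in the 4 cell types of CON, SUS and RES mice, as log2(CPM + 0.5) per library, with bars for mean ± SD and a dotted line at 0 CPM. The cell types differ by more than the stress groups, with Nt5e highest in T cells and Adora2b near 0 CPM in B and T cells.

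A list of 62 further genes of NAD and purine metabolism, of which 61 were in the count table, gave the surroundings of the 7. In Ly6C-high monocytes 48 were tested, and in SUS vs. CON 1 was called higher and 1 lower, against 3.45% of all genes called there, a share near that of the list. Their median log2 change was -0.08, against -0.05 over all genes. Dpp4, the surface dipeptidyl peptidase CD26, fell by 1.30 ± 0.25 (SE) on the log2 scale (edgeR, adjusted p = 0.00201). It ran from 39.3 to 68.0 CPM in CON (median 58.4), 13.7 to 30.6 CPM in SUS (median 23.4) and 20.6 to 59.3 CPM in RES (median 43.6). Every SUS library lay below every CON library, as in 2.41% of all genes, while RES overlapped both. P2ry13, a receptor for ADP, rose by 1.99 ± 0.63 (SE, adjusted p = 0.0377). Its CON libraries ran from 0.301 to 3.27 CPM (median 1.98), its SUS libraries from 3.55 to 16.8 CPM (median 6.19) and its RES libraries from 0.746 to 10.5 CPM (median 2.54). The SUS libraries all lay above the CON libraries, as in 4.39% of all genes, and those of RES overlapped both. The call of P2ry13 was lost without CON library 1, 4, 10 or 13 or SUS library 2, 8 or 14 (1.62 to 2.20 over all 18 libraries left out in turn, adjusted p = 0.027 to 0.116), and that of Dpp4 was kept in all 18. With the red cell genes as a covariate neither was called (Dpp4 -0.95, adjusted p = 0.355, and P2ry13 1.34, adjusted p = 0.789).

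Past the adjusted p but not the fold limit in the same contrast were Parp14, an intracellular ADP-ribosyltransferase (-0.65, adjusted p = 0.00664), and Sirt1, an NAD-dependent deacetylase (-0.76, adjusted p = 0.0406). By role, none of the 11 tested genes of NAD synthesis, of the 2 ecto-ADP-ribosyltransferases or of the 3 genes of nucleotide hydrolysis was called in Ly6C-high monocytes. No gene of the list was called by edgeR or DESeq2 in any other contrast or cell type, where 0 to 7 genes had an unadjusted p of edgeR under 0.05. In Ly6C-low monocytes the lowest p for SUS vs. CON was that of P2rx4, an ATP-gated channel (-0.69, adjusted p = 0.188 in edgeR). In T cells the lowest for RES vs. CON was Nmrk1, a nicotinamide riboside kinase (1.01, adjusted p = 0.812). In Ly6C-high monocytes the lowest for SUS vs. RES was Dpp4 (-0.83, adjusted p = 0.973).

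The genes with the most similar pattern were found among 11220 genes by Pearson's correlation of log2 levels over the 12 group means, which share libraries and differ mostly by cell type. They were Ppdpf, Zdhhc14, Optn, Stt3b and Nrf1 for Cd38 (r = 0.97 to 0.96), Prdx5, Tbc1d13 and Rab7 for Bst1, and Abca6 and Pde7b for Nampt. They were Pitpnc1, Tcf7 and Srpk1 for Nt5e, Nectin1, Nxpe4 and Lpin2 for Entpd1, Fgfr1, Secisbp2 and Adcy7 for Adora2a, and Tcp11l1, Tyrobp and Ifitm3 for Adora2b. Over the 18 Ly6C-high libraries alone, the genes most like Cd38 included Gda (r = 0.92), Stt3a, Cd93 and B4galt6. Among the members, the pattern of Bst1 was close to those of Nampt (r = 0.96) and Adora2b (r = 0.91), Nampt to Adora2b (r = 0.93) and Entpd1 to Adora2b (r = 0.89), while Nt5e ran opposite to Entpd1 (r = -0.81). Cd38 had a negative r with each of the other 6, the lowest with Nampt (-0.53). These values describe 12 points and have no test. The names depended on the measure. With Spearman's rank correlation, 0 of the 5 genes named first for Cd38 stayed among its 5 most similar, 1 of 3 stayed for Nampt and 0 of 3 for each of the other 5 genes, and over the 18 Ly6C-high libraries 1 of 5 stayed for Cd38. With 0.1 in place of 0.5 CPM added before log2, 0 of 3 stayed for Bst1 and 1 of 3 for Adora2b.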

How the data were processed

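Total RNA of sorted cells was made into libraries with a stranded SMARTer kit for total RNA of low input (Pico, v2), and per the study's methods and the submitters' processing notes reads were aligned to mm10 with HISAT2 and counted per Ensembl gene with HTSeq. The authors deposited raw read counts of 70 libraries. The strand option, duplicate handling and multimapping reads are not given in the sources used here. Tests used edgeR 4.0.16 in R 4.3.3 (TMM, filterByExpr, robust quasi-likelihood F test) on the 3 stress groups of a cell type, on the 4 CON groups, or on all 12 groups for differences of changes. P-values were adjusted over all genes tested (Benjamini-Hochberg), and calls needed an adjusted p below 0.05 together with a log2 change of more than 1 in size. Alternatives used DESeq2 1.42.0, other filters, normalizations and groups, covariates and each library left out. Levels are TMM CPM over 68 libraries, with 0.5 CPM added before log2. The scripts were tested on simulated counts. Exon lengths came from GENCODE and starts from RefSeq, both on GRCm38.

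The 7 genes and the lists were chosen with earlier results of these data known. All 7 genes are named with values. From the list of 62 genes those called in a stress contrast are named, and otherwise at most 3 of lowest p in a contrast. Likeness was ranked over protein-coding genes with at least 50 counts on average, 5 for Cd38 and 3 for each other gene, of which 2 are not reported here. Genes past the adjusted p alone, Cd209a and Zbtb46 were named after their values were seen. Libraries 52 and 70 were left out because their markers went against their labels. With a median of 37105583.5 counts per library, counting error weighs on genes with few reads, such as Cd38 in CON Ly6C-high monocytes, Nt5e in stressed Ly6C-high monocytes and Bst1 and Adora2b in lymphocytes.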

Additional observations from a re-analysis of the deposited data

Results flagged for a closer look

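Of 84 groups of a gene examined, 10 held a library set apart from the others of its group by Dixon's criterion. Chance gives about 1 in 20 where values are normally distributed, and the rate for groups with libraries at or near 0 CPM, such as Bst1 and Adora2b in T cells, was not measured. In Ly6C-high monocytes, SUS library 8 held 37.0 CPM of Cd38 against 10.9 in the next, and RES library 18 held 5.22 CPM against 2.01. RES library 12 of the same cell type held 2.60 CPM of Nt5e against 0.696. In Ly6C-low monocytes, SUS library 22 held 1.63 CPM of Bst1, below the next at 6.56, and CON library 21 held 13.5 CPM of Adora2b against 9.01. In T cells, RES library 67 held 9.28 CPM of Cd38 against 3.51. Bst1 in T cells was at 1.19 CPM in SUS library 54 against 0.0285, and at 0.363 CPM in RES library 58 against 0.0289. CON library 53 of the T cells stood apart in Nampt (27.0 CPM against 19.7) and in Adora2b (0.325 CPM against 0.0413).

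The 2 libraries left out for their markers held signal above the control libraries of their labelled cell type. Library 70, labelled as T cells of RES mice, held 99.0 CPM of Cd38 against at most 4.37 in CON T cells, 28.1 CPM of Nampt against at most 27.0, and 11.2 CPM of Entpd1 against at most 10.2. Library 52, labelled as B cells of RES mice, held 80.2 CPM of Nt5e against at most 2.53 in CON B cells. The Cd38 level of library 70 lay at the lowest B cell library of CON mice (99.3 CPM), and the Nt5e level of library 52 lay within the range of the T cell libraries.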

How the results depend on the processing

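No paired analysis was possible because each library has its own number in the labels and no label ties libraries to a mouse. No direction reversed among the log2 changes followed under the alternatives. These were changes already called or, for stress, with an unadjusted p of edgeR under 0.05. Changes near 0, which reverse most easily, were not among them. With red cell genes as a covariate, added after the data were seen, the count of members called fell from 1 to 0 in Ly6C-high monocytes for SUS vs. CON and for RES vs. CON and in Ly6C-low monocytes for SUS vs. CON, and the count of pathway genes called in Ly6C-high monocytes for SUS vs. CON fell from 2 to 0. The latter count was 4 at an adjusted p alone and 1 to 2 with a library left out. In Ly6C-low monocytes, the count for SUS vs. CON was 0 with only both groups in the fit and 0 to 1 with a library left out. In CON mice, 1 to 3 of the 6 genes other than Cd38 were called between the monocyte types with a library left out (1 without Ly6C-low library 24) and 3 to 5 of all 7 between B and T cells (5 without T cell library 53). The cause of these moves was not tested. Median red cell sums in CON, SUS and RES were 614, 1680 and 1830 CPM in Ly6C-high monocytes. They were 593, 1070 and 1060 CPM in Ly6C-low monocytes, where ranges overlapped and 0 of 6 markers were called against CON. The fit with this covariate therefore cannot fully separate red cell transcripts from stress. Of the other counts, 742 stayed within 1.5 times their value, and of 1112 log2 changes under an alternative 36 lost their call and 18 moved by more than 1 SE, 14 of them with a library left out. The furthest was Adora2b without T cell library 53, at 10.3 for Ly6C-high and 9.56 for Ly6C-low monocytes vs. T cells (8.00 and 7.29 with it). With libraries 52 and 70 kept, Nt5e in T cells for RES vs. CON went from 0.32 to 0.06. Keeping libraries 52 and 70 under their labels moved the RES means of Cd38 (19.8 CPM), Nt5e (68.6 CPM) and Entpd1 (7.26 CPM) in T cells and of Nt5e in B cells (14.1 CPM). Cd38 in Ly6C-high monocytes did not pass the count filter with only SUS and CON in the fit, so that value could not be had. Depth limits the fold of Cd38 there, since no CON library held more than 10 reads.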
